A study of Canis lupus familiaris with 4 samples.

Results

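The miR-17-92 cluster was examined in small RNA of extracellular vesicles (EVs), membrane-bound particles that cells release, from a pair of canine mammary carcinoma cell lines. Its members were taken by name, as the rows of the deposited miRNA table for cfa-mir-17, cfa-mir-18a, cfa-mir-19a, cfa-mir-20a, cfa-mir-19b and cfa-mir-92a with their numbered copies. The rule found 8 of the 673 rows, of which 508 are known miRNAs. The rows cfa-mir-19b-1 and cfa-mir-19b-2 held the same values in every library, as did cfa-mir-92a-1 and cfa-mir-92a-2, so each pair was counted once and 6 distinct rows remained.

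The study compared EVs of CHMp cells, from a primary tumor (pTDEs), with EVs of CHMm cells, from a metastasis of the same dog (mTDEs), with 2 replicates per cell line and no treatment named in the labels. The cells were kept without serum while they released EVs, which were then concentrated on filters and pelleted at high speed. The study describes the replicates as biological, but the labels do not say that they came from separate cultures, so the p-values measure the spread between these libraries, each cell line being 1 line from 1 dog. In these bulk samples fewer EVs carrying a miRNA and less of it per EV cannot be told apart.

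The miR-17-92 genes lie close together on 1 chromosome and are transcribed as a single primary transcript, from which each hairpin is cut out and processed into its own mature miRNA. The cluster is known as an oncogenic one: MYC activates it, and its miRNAs repress regulators of cell survival and proliferation such as BCL2L11. The miRNAs fall into groups by their seed, the bases near the 5′ end that pair with targets: miR-17 and miR-20a share one seed, miR-19a and miR-19b another, and miR-18a and miR-92a each have their own. Vertebrates carry paralogous clusters with related miRNAs, miR-106a-363 on the X chromosome and miR-106b-25.

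In the RefSeq annotation of the dog assembly UU_Cfam_GSD_1.0, in which 8 of the 8 rows matched a gene by name, the genes on chromosome 22 stand in the order MIR17, MIR18A, MIR19A, MIR20A, MIR19B-1 and MIR92A-1, all within 1 long non-coding RNA gene. The second copies, MIR92A-2 and MIR19B-2, stand on chromosome X between MIR363 and MIR20B. The equal values of the copies mean that the table does not tell chromosome 22 from chromosome X for miR-19b and miR-92a.

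The sequences that bear on how far the rows can be told apart are those of miR-17, miR-20a and miR-106a, and of miR-19a and miR-19b. They were read from the consensus sequences of miRDeep2 candidates that the study listed on CanFam3.1. These candidates lie on the strand opposite to the miRNA genes, and each is printed here as its reverse complement, 5′ to 3′, with the shared seed in capitals. Each candidate was matched to its gene by the spacing between them. The precursors lie at chr22:42478013-42478069 for MIR17, chr22:42478294-42478355 for MIR19A, chr22:42478462-42478515 for MIR20A, chrX:104895961-104896030 for MIR19B-2 and chrX:104896522-104896574 for MIR106A, with the chromosome 22 candidates on the minus strand and the chromosome X candidates on the plus strand.
MIR17: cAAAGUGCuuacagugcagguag
MIR20A: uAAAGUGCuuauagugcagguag
MIR106A: AAAGUGCuuacagugcagguag
MIR19A: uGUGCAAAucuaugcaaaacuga
MIR19B-2: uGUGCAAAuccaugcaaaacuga

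Counting from 1 at the 5′ end and giving the base of the first-named sequence first, MIR17 and MIR20A were identical at 21 of 23 positions and differed by C1U and C12U. MIR19A and MIR19B-2 were identical at 22 of 23 positions and differed by U11C. The whole of the MIR106A sequence, 22 bases, was contained in that of MIR17. Reads of miR-17 and miR-106a could therefore be split between their rows by the counting, and so could reads of miR-19a and miR-19b that carry an error or an untemplated base, so the levels of these rows are uncertain to that extent. The rows are named for hairpins and do not give the arm of the hairpin that was read. Sequences of miR-18a and miR-92a are not shown.

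The deposited values were whole numbers on a compressed scale and were converted to CPM, reads of a miRNA scaled to a total of 1000000 over the rows of the table, after which the low values of each library lay within 0.065 reads of a whole multiple of 1 step, the worth of 1 read. By that step the rows of the table summed to 6296519 and 5053540 reads in pTDEs and to 3457171 and 2330384 reads in mTDEs, with reads of equal copies counted in each copy. Wherever a pair of values is given for a cell line, replicate 1 comes first. Across all rows, Pearson's r of log2(CPM + 1) was 0.973 for the pair of pTDE libraries, 0.897 for the pair of mTDE libraries and 0.889 to 0.905 across cell lines. Carcinomas are epithelial tumors, although the labels name only the cell lines. The 5 rows of the miR-200 family, miRNAs that mark epithelial cells, summed to 17727 and 20604 CPM in mTDEs and to 15.1 and 6.33 CPM in pTDEs. In pTDEs 4 of the 5 rows were listed at 0 in both libraries, and only cfa-mir-200c was above 0, with 95 and 32 reads. These markers were thus far lower in pTDEs than in mTDEs. The part of this difference in the results on miR-17-92 was not tested.

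The 6 miRNAs of the cluster stood at very different levels, and their order was the same in 4 of 4 libraries. For miR-19b and miR-92a the levels are those of the chromosome 22 and chromosome X copies together, and cannot be given to 1 transcript. From the highest to the lowest it was miR-92a, miR-20a, miR-19a, miR-18a, miR-19b and miR-17, which is not the order of the genes. Mature miRNAs are of nearly one length, so CPM were compared between them without length scaling.

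miR-92a, whose seed is shared with miR-25 and miR-363, was at 17897 and 25795 CPM in pTDEs and at 33700 and 30798 CPM in mTDEs. It was among the highest rows of the table, ranking 7 and 6 in pTDEs and 5 and 5 in mTDEs. miR-20a, which shares the seed of miR-17, was at 1515 and 379 CPM in pTDEs and at 336 and 1642 CPM in mTDEs. miR-19a, which shares its seed with miR-19b, was at 756 and 326 CPM in pTDEs and at 212.4 and 1082 CPM in mTDEs. Both miRNAs had 1 high and 1 low library in each cell line, so that the cell lines overlapped.

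miR-18a, the member with a seed close to that of miR-17, was at 151 and 61.5 CPM in pTDEs and at 46.3 and 173 CPM in mTDEs. miR-19b was at 51.1 and 13.5 CPM in pTDEs (322 and 68 reads) and at 33.0 and 48.9 CPM in mTDEs (114 reads in each). miR-17, the miRNA that names the cluster, was at 8.73 and 4.75 CPM in pTDEs (55 and 24 reads) and at 23.1 and 12.9 CPM in mTDEs (80 and 30 reads). miR-18a and miR-19b again overlapped between the cell lines, whereas both pTDE libraries lay below both mTDE libraries for miR-17. At this depth the separation of miR-17 was uncertain. The exact 95% Poisson intervals of pTDE replicate 1 (6.58 to 11.4 CPM) and mTDE replicate 2 (8.69 to 18.4 CPM) overlapped, although such an overlap is not a test of a difference.

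**Figure D1:**
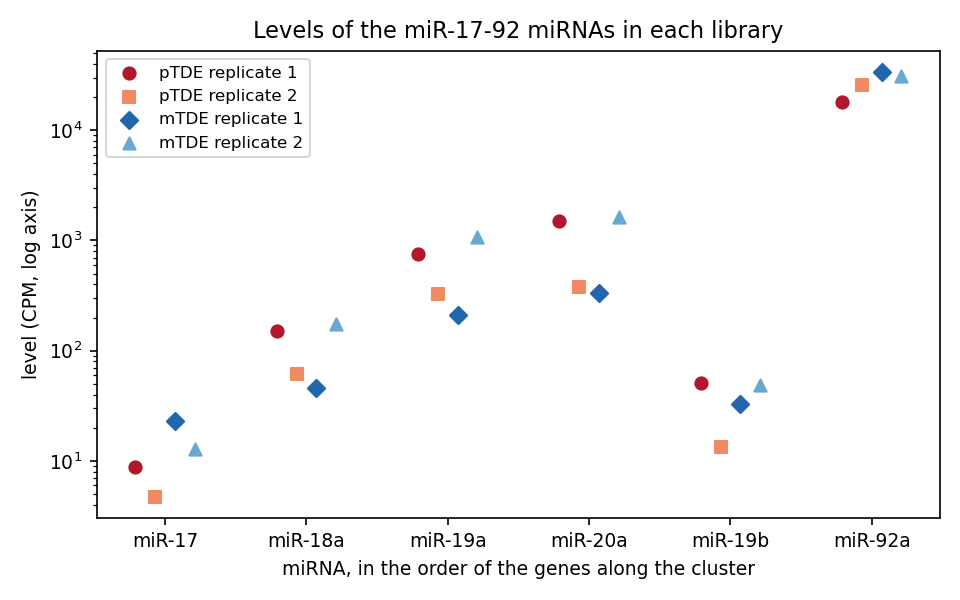
Level of each of the 6 distinct miR-17-92 rows in CPM on a log axis, in the order of the genes along the cluster, with 1 point per library (pTDE = EVs of CHMp, mTDE = EVs of CHMm). miR-92a sits between 17897 and 33700 CPM in the 4 libraries and miR-17 between 4.75 and 23.1 CPM, and miR-18a, miR-19a and miR-20a are highest in pTDE replicate 1 and mTDE replicate 2.

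Some neighbors in this order were close. The level of miR-20a was 2.003 and 1.16 times that of miR-19a in pTDEs, 1.58 and 1.52 times in mTDEs, and the ranges of the 2 miRNAs over the libraries overlapped. Within each library the 95% Poisson intervals of these miRNAs, which cover counting error only, did not overlap. In pTDE replicate 2, where they were closest, they ran from 310 to 342 CPM for miR-19a and from 362 to 396 CPM for miR-20a. At these levels reads were not resolved singly, so the intervals of both miRNAs rest on rounded counts. Such intervals also take reads as independent, although forward and reverse reads were joined before counting. In mTDE replicate 1 the intervals of miR-19b (27.2 to 39.6 CPM) and miR-17 (18.3 to 28.8 CPM) overlapped, and that of miR-18a (39.4 to 54.0 CPM) reached the upper end of that of miR-19b. In that library miR-18a had 160 reads, miR-19b 114 and miR-17 80. Overlap of such intervals is not a test of a difference, and whether this depth resolves the order of the last 3 miRNAs was not tested. The lowest level of miR-19a, 212.4 CPM, was above the highest of miR-18a, 173 CPM, and the levels of miR-92a lay far above those of every other member.

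The highest row of the cluster was 2049-fold and 5429-fold above the lowest in pTDEs, and 1457-fold and 2392-fold in mTDEs. The lowest row is miR-17, whose sequence contains that of miR-106a. As for the other miRNAs printed above, a candidate was listed on the strand opposite to its gene, and within each sample the forward reads were joined with the reverse reads before counting. The part of the counting in the low level of miR-17 was not tested. Without miR-17, a comparison added after its values were seen, the highest row was 350-fold and 1917-fold above the lowest in pTDEs, and 1021-fold and 630-fold in mTDEs. On the scale of log2(CPM + 1) this span averaged 11.1 over the 4 libraries with miR-17 and 9.61 without it. In 15 other miRNA clusters the mean span ran from 0.42 in miR-15b-16 to 7.17 in miR-23b-27b-24, with a median of 2.52. The highest row of miR-23b-27b-24, cfa-mir-24-1, held the same values as cfa-mir-24-2, the highest row of miR-23a-27a-24. The spans of these clusters therefore cannot be given to 1 transcript either. Both rows of miR-29b-29c also had copies with equal values. The 15 clusters were measured over 2 to 4 rows each, and the miR-106a-363 cluster without its copies of miR-19b and miR-92a, which were counted in miR-17-92. With these copies, an alternative added after the values were seen, the 6 rows of miR-106a-363 spanned 14.1 and 14.7 in pTDEs and 15.0 and 14.9 in mTDEs, more than miR-17-92 in every library. The lowest of these rows, miR-18b, was listed at 0 in every library, so this span is set by miR-92a and the added 1 CPM. The lowest row of miR-17-92 was above 0 in every library. The span of either cluster thus depends on which is given the miR-92a row, and no test was made.

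**Figure D2:**
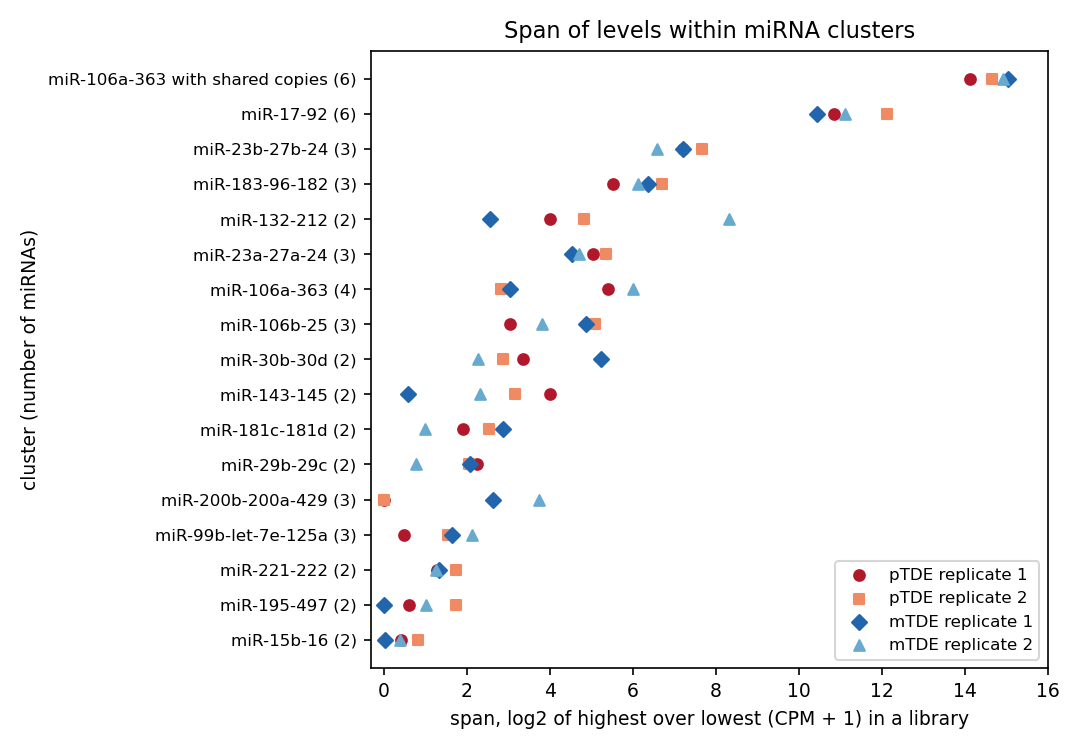
Span of levels within miR-17-92, 15 other miRNA clusters and miR-106a-363 with its copies of miR-19b and miR-92a, as the log2 ratio of the highest to the lowest (CPM + 1) in each library, with the number of rows measured in parentheses. The 4 libraries place miR-17-92 between 10.4 and 12.1, above the 15 other clusters but below miR-106a-363 with the shared copies, at 14.1 to 15.0, and miR-200b-200a-429 is at 0 in both pTDE libraries because its rows were listed at 0 there.

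miR-92a made up most of the summed level of the cluster, with the reads of both its copies in 1 row. Its share of the summed level was 87.8% and 97.0% in pTDEs against 98.1% and 91.2% in mTDEs, on average 92.4% ± 6.53 in pTDEs against 94.7% ± 4.86 in mTDEs (SD, n = 2 each; two-sided exact permutation p = 0.667). With 2 libraries against 2 the smallest p such a test can give is 0.333, so it cannot reach 0.05. The difference in the share between cell lines was smaller than the spread between replicates.

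Without miR-92a the remaining 5 rows kept similar proportions in most libraries. miR-20a made up 61.0% and 48.3% of their sum in pTDEs and 51.7% and 55.5% in mTDEs. miR-19a made up 30.5% and 41.5% in pTDEs and 32.6% and 36.6% in mTDEs. miR-18a made up 6.10% and 7.84% in pTDEs and 7.11% and 5.85% in mTDEs. The level of miR-19a was 4.99 and 5.30 times that of miR-18a in pTDEs and 4.59 and 6.25 times in mTDEs, while the level of each alone varied 5.09-fold and 3.74-fold over the libraries.

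miR-17 departed from these proportions in mTDE replicate 1. It made up 0.352% and 0.606% of the sum without miR-92a in pTDEs and 3.55% and 0.435% in mTDEs. miR-20a, its partner in seed and nearly in sequence, was 173 and 79.7 times as high in pTDEs and 14.5 and 128 times as high in mTDEs. miR-19b was also at its largest share in mTDE replicate 1, at 5.07%, against 1.65% to 2.06% in the other libraries. In that library the levels of miR-18a, miR-19a and miR-20a were at their lowest, whereas miR-17 was at its highest.

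**Figure D3:**
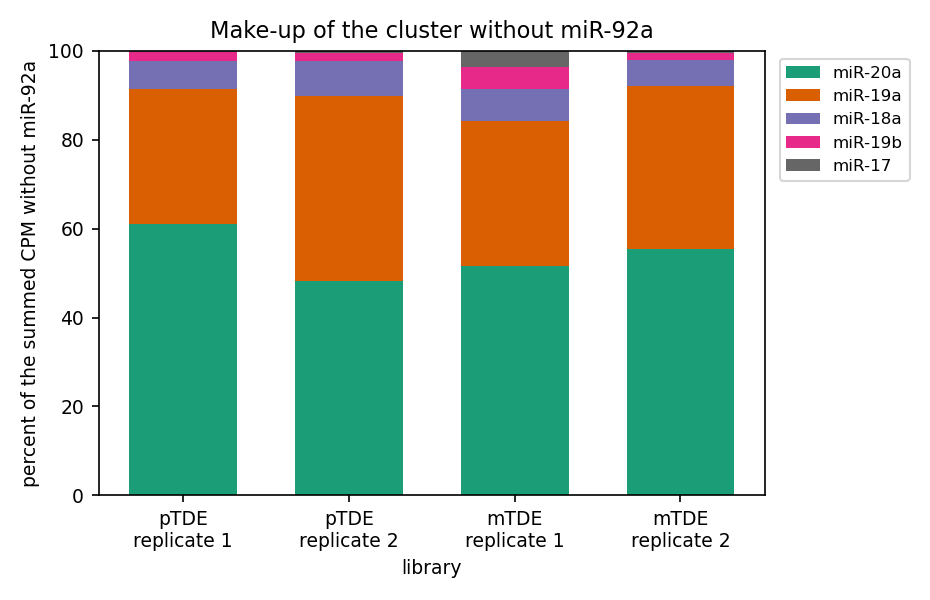
Make-up of the summed CPM of the 5 rows other than miR-92a in each library, in percent. miR-20a takes 48.3% to 61.0% and miR-19a 30.5% to 41.5%, and miR-17 and miR-19b are at their largest shares in mTDE replicate 1, 3.55% and 5.07%.

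No member of the cluster was called different between pTDEs and mTDEs. By limma on log2(CPM + 1), 0 of the 6 members had an adjusted p-value under 0.05, compared with 1.84% of the 326 rows tested, and 0 of 6 had an unadjusted p-value under 0.05, compared with 19.6% of the rows tested. The called rows were 0 higher and 6 lower in pTDEs, and 5 higher and 9 lower with median-ratio size factors. All 6 members passed the filter, which asked for a value above 0 in each library of 1 cell line or the other. The median log2 fold change of pTDEs over mTDEs was -0.28 over the members and -0.03 over all rows tested. A p-value that misses the threshold does not show that the levels were equal, and the 95% intervals were wide.

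miR-92a had the narrowest interval. Its mean for pTDEs was 21846 ± 5585 CPM against 32249 ± 2052 CPM for mTDEs (SD, n = 2 each), a log2 fold change of -0.58 (standard error 0.35, 95% interval -1.51 to 0.35, limma adjusted p = 0.386). For miR-17 the mean was 6.74 ± 2.82 CPM for pTDEs against 18 ± 7.25 CPM for mTDEs (SD, n = 2 each), a log2 fold change of -1.29 (standard error 0.88, 95% interval -3.65 to 1.07, limma adjusted p = 0.443). These were the 2 of 6 members whose cell lines did not overlap with the lower levels in pTDEs, compared with 27.3% of the rows tested, and 0 of 6 did not overlap with the higher levels in pTDEs, compared with 26.1%.

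The separation of both miRNAs depended on the scaling. With median-ratio size factors, which moved the median log2 fold change of all rows tested by 0.25, miR-92a was at 19385 and 26717 in pTDEs and at 37774 and 22055 in mTDEs in scaled CPM, and miR-17 at 9.46 and 4.92 in pTDEs and at 25.9 and 9.22 in mTDEs. Both then overlapped between the cell lines, and 0 of 6 members lay apart, compared with 23.9% of the rows tested lying apart with the lower and 30.7% with the higher levels in pTDEs under that scaling.

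For the other 4 members the fitted differences were small beside their errors. miR-19b averaged 32.3 ± 26.6 CPM for pTDEs against 41.0 ± 11.3 CPM for mTDEs (SD, n = 2 each), a log2 fold change of -0.59 (95% interval -3.33 to 2.16). The log2 fold change was 0.11 for miR-18a (95% interval -2.54 to 2.75), 0.05 for miR-19a (-2.58 to 2.67) and 0.03 for miR-20a (-2.90 to 2.95). The limma adjusted p-values of these 4 ran from 0.773 to 0.993. Differences of more than 4-fold in either direction lie within each of these intervals.

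**Figure D4:**
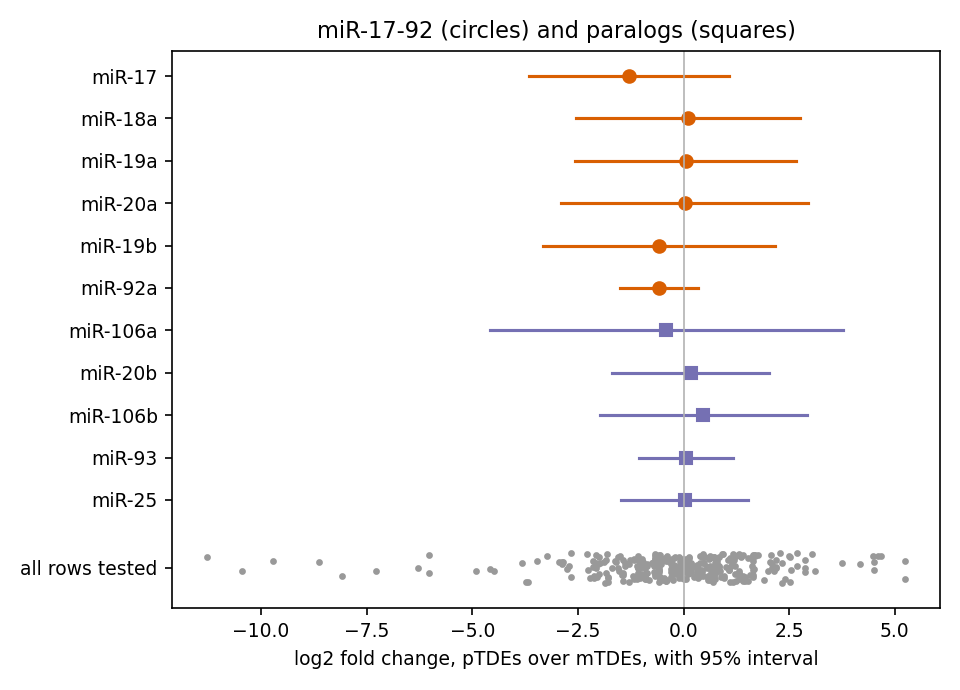
Log2 fold change of pTDEs over mTDEs from limma with its 95% interval, for the 6 miR-17-92 rows (circles) and 5 paralogs (squares), above the fold changes of the 326 rows tested (dots, spread vertically for legibility). Every interval of a member or paralog includes 0, and that of miR-92a, -1.51 to 0.35, is the narrowest among the members.

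The summed level of the cluster was 20379 and 26580 CPM in pTDEs against 34352 and 33757 CPM in mTDEs, or 2.04% and 2.66% of the table's total in pTDEs and 3.44% and 3.38% in mTDEs, a total in which copies with equal values count more than once. Both pTDE libraries lay below both mTDE libraries, with a difference in mean log2 of -0.55 (two-sided exact permutation p = 0.333, the smallest this design allows). With median-ratio size factors the cell lines overlapped, at 22074 and 27529 in pTDEs and 38504 and 24174 in mTDEs in scaled CPM, and the difference was -0.31. This sum is nearly that of miR-92a. Without miR-92a it was 2482 and 784 CPM for pTDEs against 651 and 2959 CPM for mTDEs, the cell lines overlapped and the difference in mean log2 was 0.01 (two-sided exact permutation p = 1).

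The spread of miR-18a, miR-19a and miR-20a lay between replicates rather than between cell lines. On the log2 scale pTDE replicate 1 exceeded replicate 2 by 1.29 for miR-18a, 1.21 for miR-19a and 2.0 for miR-20a. The difference of mTDE replicate 1 from replicate 2 was -1.88 for miR-18a, -2.34 for miR-19a and -2.28 for miR-20a. For these 3 of the 6 members both replicate differences were larger in size than the difference between cell lines, compared with 25.8% of the rows tested. Over all rows tested the median size of a replicate difference was 0.64 in pTDEs and 0.91 in mTDEs.

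miR-19b was also highest in pTDE replicate 1, with a replicate difference of 1.85 in pTDEs and -0.55 in mTDEs. With it, 4 of the 6 members were higher in pTDE replicate 1 and mTDE replicate 2 than in both other libraries, compared with 16.9% of the rows tested. With median-ratio size factors this number was 3 of 6, without miR-19b, compared with 12.9% of the rows tested. miR-92a and miR-17 did not have this pattern: the replicate differences were -0.53 in pTDEs and 0.13 in mTDEs for miR-92a, and 0.76 and 0.80 for miR-17. Libraries were sequenced on 2 instruments, and which library was run on which is not named in the sources used here, so the part of the instrument was not tested.

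**Figure D5:**
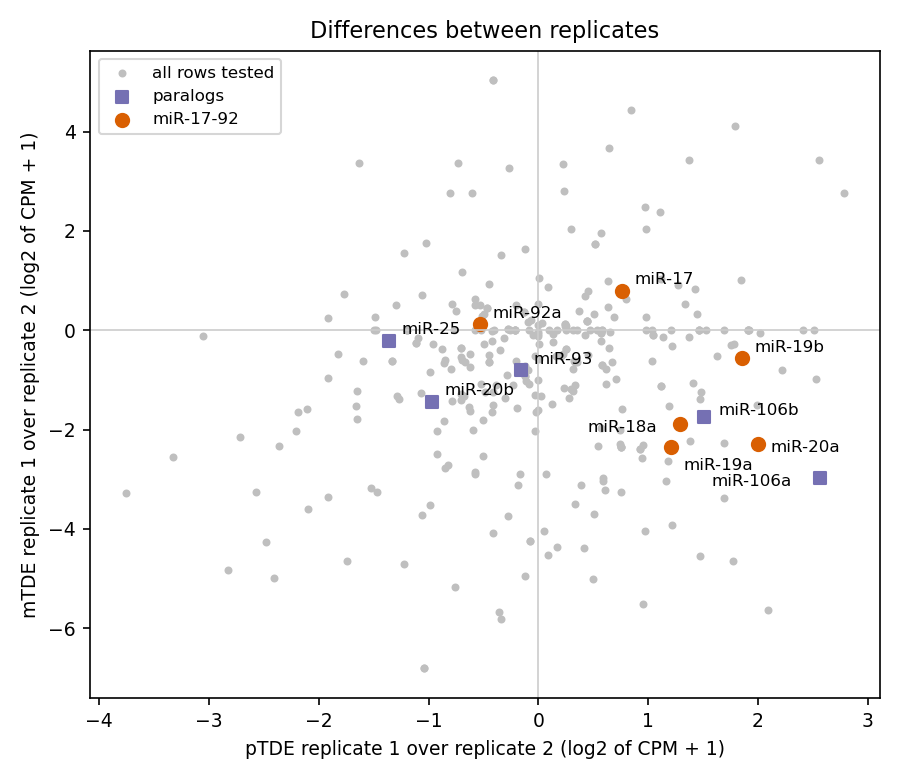
Difference between replicates 1 and 2 on the scale of log2(CPM + 1), in pTDEs (x axis) and in mTDEs (y axis), for the 326 rows tested (grey), the miR-17-92 rows (circles) and 5 paralogs (squares). miR-18a, miR-19a, miR-20a, miR-19b, miR-106a and miR-106b lie in the lower right, higher in pTDE replicate 1 and in mTDE replicate 2, and miR-92a lies near the center.

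The paralogs were compared as relatives of these miRNAs, and 5 of 7 passed the filter. Among these 5, 0 had a limma adjusted p-value under 0.05, compared with 1.84% of the rows tested, and 0 an unadjusted p-value under 0.05, compared with 19.6%. With so few rows these counts say little about the paralogs. miR-106a, whose printed sequence is contained in that of miR-17, was at 41.1 and 6.13 CPM in pTDEs and at 7.24 and 63.5 CPM in mTDEs. Its level was 4.71 and 1.29 times that of miR-17 in pTDEs and 0.313 and 4.93 times in mTDEs. The ratio of these nearly identical miRNAs was highest in pTDE replicate 1 and mTDE replicate 2.

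The rest of the X-linked cluster was at or near 0. miR-18b was listed at 0 in all 4 libraries, where 3 reads would be 0.477 to 1.29 CPM, miR-363 had 2 reads in pTDE replicate 2 and none elsewhere, and miR-20b reached at most 1.71 CPM. Of the miRNAs whose second copies stand beside these genes, miR-92a was at 17897 CPM or more and miR-19b at 13.5 CPM or more in every library. The copies on chromosome 22 and chromosome X cannot be told apart in their rows.

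In the miR-106b-25 cluster, miR-106b, of the miR-17 seed group, was at 504 and 176 CPM in pTDEs and at 117 and 395 CPM in mTDEs, which is 0.332, 0.466, 0.347 and 0.240 times miR-20a in the order of the libraries. miR-93, of the same seed group, was at 4168 and 4664 CPM in pTDEs and at 3221 and 5599 CPM in mTDEs. miR-25, of the miR-92a seed group, was at 2361 and 6058 CPM in pTDEs and at 3463 and 3998 CPM in mTDEs. Each overlapped between the cell lines in CPM, although miR-93 no longer did with median-ratio size factors. miR-93 was thus far above miR-17 and miR-20a, the members of the cluster with which it shares a seed, and miR-25 was below miR-92a in every library.

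Among the 237 rows that averaged 10 CPM or more, members and paralogs left out and copies with equal values named once, those whose log2 profile over the 4 libraries was most like that of the summed cluster were cfa-mir-191 (root mean square distance 0.147), cfa-mir-128-1 with its equal copy cfa-mir-128-2 (0.154), cfa-mir-135b (0.172), cfa_novel_1 (0.239) and cfa-mir-181d (0.243). cfa-mir-191 was at 4502 and 4717 CPM in pTDEs and at 7992 and 6929 CPM in mTDEs. For miR-20a, a profile chosen after its values were seen, the nearest rows were cfa-mir-708 (0.375), with 304 and 116 CPM for pTDEs against 55.2 and 262 CPM for mTDEs, and cfa-mir-1842 (0.408), with 105 and 45.2 CPM for pTDEs against 46.3 and 135 CPM for mTDEs. Profiles over 4 libraries that share depth and scaling are a description only.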

How the data were processed

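Small RNA libraries were made with the NEXTflex kit and sequenced in pairs on Illumina HiSeq and NovaSeq instruments. The authors trimmed adapters and kept reads of 22 to 30 bases with cutadapt, joined forward with reverse reads within a sample, and counted reads of known and candidate miRNAs by miRDeep2 against the CanFam3.1 genome; versions are not given in the sources used here. Shorter mature forms were thus not counted, and the part of this filter in the levels was not tested.

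The deposited values were treated as a score: they are whole numbers v described as CPM. They were converted to CPM as 2^(v/s) - 1, with s set in each library so that the total was 1000000. After conversion, 100% of the low values of each library (35 to 62 values under 20 CPM) were whole multiples of 1 read, within the rounding of the deposited number plus 0.005 CPM. The deposited columns of the authors' own comparison (fold change, level, likelihood ratio, p-value and false discovery rate) were not used.

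limma 3.58.1 in R 4.3.3 (eBayes with trend, log2(CPM + 1), Benjamini-Hochberg over 326 rows) was fitted to rows whose value exceeded 0 in each library of CHMp or of CHMm. Sums, shares and ratios used Python 3.11.15, numpy 2.4.6, pandas 2.3.3 and scipy 1.17.1, with two-sided exact permutation tests. The conversion and the limma step were also run on simulated tables. The changes put into these were larger than those fitted for the members, and the outcome is not given here. The members, the lists and the other clusters were chosen with earlier results of these data known. The named miRNAs were the members, the 7 paralogs of miR-106a-363 and miR-106b-25, the 15 other clusters and the 5 rows nearest to the summed profile. The rows nearest to miR-20a were chosen after its values were seen, and the 5 miR-200 family rows served as epithelial markers. Alternatives were other pseudocounts (0.1 and 5 CPM), row filters and scalings, the deposited values taken as CPM, no trend, voom on recovered reads, known miRNAs only, identical rows once, a replicate block and leaving out each library. Same-numbered replicates were not taken as pairs. RefSeq coordinates are of another build and are not given.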

Additional observations from a re-analysis of the deposited data

How the results depend on the processing

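No member was called under any of the 15 alternatives, 0 of 6 in each by limma. Rows called over the whole table ranged from 0 higher and 0 lower in pTDEs, without either mTDE library in turn, to 39 higher and 11 lower when the deposited values were read as CPM. Under a replicate block the log2 fold changes stayed at -1.29 for miR-17 and -0.58 for miR-92a (limma adjusted p = 0.511 and 0.486), and the block changed no call of a member or paralog. Same-numbered replicates had a correlation of deviations of 0.151 over 326 rows.

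Leaving out 1 library moved the log2 fold change between -1.69 and -0.89 for miR-17 and between -0.85 and -0.32 for miR-92a. It turned the sign of miR-18a (-0.83 to 1.05), miR-19a (-1.12 to 1.22) and miR-20a (-1.11 to 1.17) without pTDE replicate 1 (-0.54, -0.56 and -0.97) and without mTDE replicate 1, and of miR-19b (-1.51 to 0.34) without pTDE replicate 2. Signs of 5 paralogs also turned, with ranges of -1.90 to 1.07 for miR-106a, -0.55 to 0.88 for miR-20b, -0.40 to 1.35 for miR-106b, -0.34 to 0.45 for miR-93 and -0.66 to 0.70 for miR-25. With 1 library left in a cell line, it is assumed to vary like the other line.

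The deposited values taken as CPM compress the scale: the span fell to 2.08 from 11.1, the mean share of miR-92a over the 4 libraries to 30.5% from 93.6%, and the log2 difference became 0.059 for miR-92a and 0.048 for the summed level. The summed level without miR-19b and miR-92a differed by 0.029. With miR-17 not counted, an alternative chosen after seeing the data, the span was 9.61. With 1 library left out, the difference of the whole summed level ranged from -0.74 to -0.36, and with median-ratio size factors it was -0.31.

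Depth limits miR-17, with 24 to 80 reads, and the 3-read limit was 0.477 to 1.29 CPM. Rows of paralogs and copies were not separated further. The design holds 2 libraries per line.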
